A study of Mus musculus with 12 samples.

Results

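The fibrillar collagen chains of types I, III, V and XI were examined in mouse scar tissue. The members were the 8 genes listed under the symbols Col1a1, Col1a2, Col3a1, Col5a1, Col5a2, Col5a3, Col11a1 and Col11a2, out of 35976 genes listed in the count files, and all 8 were abundant enough to be tested. Bulk RNA-seq was performed on 12 scars, 3 in each of 4 groups. Scars came from Tem1WT/WT or Tem1lacZ/lacZ mice, and were labelled Sham or Traction. Tem1, listed under the symbol Cd248, encodes endosialin, a surface glycoprotein of fibroblasts and pericytes, and in Tem1lacZ/lacZ mice its only exon is replaced throughout the animal by the lacZ reporter. All mice were males aged 8 to 12 weeks. The lacZ line had been backcrossed to C57BL/6 J for 10 generations. Every animal received a 1.5 cm back wound. A plastic device was fitted on day 6 in all groups, which pulled the wound apart 1 mm each day until 8 mm was reached in the traction groups and exerted no pull in the sham groups.

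Fibrillar collagens form the rope-like fibrils that give skin, tendon and bone their tensile strength. Each molecule is a triple helix of 3 chains: type I usually joins a pair of Col1a1 chains with 1 Col1a2 chain, and type III is made of Col3a1 alone. Types V and XI are minor collagens that sit within the fibril, start its assembly and limit its thickness. Type V is the form of skin and type XI that of cartilage. In healing wounds fibroblasts deposit type III collagen early, and type I collagen takes a growing share as the scar matures.

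The 8 genes lie on 7 chromosomes of GRCm38. Col1a1 (ENSMUSG00000001506.10) spans chr11:94936224-94953042, Col1a2 spans chr6:4504814-4541544 and Col5a1 spans chr2:27886425-28039514, all on the plus strand. Col3a1 (chr1:45311538-45349706, plus strand) and Col5a2 (chr1:45374321-45503282, minus strand) end 24614 bases apart and are read toward each other. Col5a3 (chr9:20770050-20815067) lies on the minus strand, while Col11a1 (chr3:114030540-114220718) and Col11a2 (chr17:34039437-34066685) lie on the plus strand. The longest annotated transcripts have 51 exons for Col1a1 and Col3a1, and 67 for Col5a3 and Col11a1. GENCODE places Gm47302 over Col3a1 on the same strand, and 2810430I11Rik and Gm13372 over Col5a1 on the other strand. None of these 3 genes is listed in the count files.

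Promoter windows (GRCm38.p6, 250 bases before to 50 bases after an annotated start) were available for 6 of the 8 chains. Those of Col3a1, Col5a1 and Col11a1 lie on the starts of the spans given above. That of Col1a2 lies on the RefSeq start at 4505618, which is inside its span, so its positions are not matched to the others. Those of Col1a2, Col3a1 and Col5a1 are shown because these chains moved together from scar to scar, and that of Col11a1 because it did not move with them. Capitals mark CCAAT or its reverse complement ATTGG, the GC box GGGCGG or CCGCCC, and TATAAA or TTTATA, searched on both strands. No marked matches overlap.
Col1a2 (chr6:4505368-4505667, plus strand): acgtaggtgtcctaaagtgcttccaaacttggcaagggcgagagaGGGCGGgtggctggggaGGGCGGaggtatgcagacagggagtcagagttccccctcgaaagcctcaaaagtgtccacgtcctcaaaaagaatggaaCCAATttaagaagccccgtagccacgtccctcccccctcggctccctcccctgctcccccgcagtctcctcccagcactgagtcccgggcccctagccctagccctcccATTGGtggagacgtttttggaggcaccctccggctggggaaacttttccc
Col3a1 (chr1:45311288-45311587, plus strand): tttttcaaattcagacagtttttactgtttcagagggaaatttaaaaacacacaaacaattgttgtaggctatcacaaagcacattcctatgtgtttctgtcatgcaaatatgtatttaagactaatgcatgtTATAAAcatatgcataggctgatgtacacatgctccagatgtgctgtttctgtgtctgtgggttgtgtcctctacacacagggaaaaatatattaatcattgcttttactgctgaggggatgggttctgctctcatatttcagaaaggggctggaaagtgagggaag
Col5a1 (chr2:27886175-27886474, plus strand): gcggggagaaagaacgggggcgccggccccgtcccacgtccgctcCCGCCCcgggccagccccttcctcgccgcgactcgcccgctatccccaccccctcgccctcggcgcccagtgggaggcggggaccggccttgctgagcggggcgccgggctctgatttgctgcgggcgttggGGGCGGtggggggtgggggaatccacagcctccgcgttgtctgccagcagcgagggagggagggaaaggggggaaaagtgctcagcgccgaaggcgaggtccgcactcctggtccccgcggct
Col11a1 (chr3:114030290-114030589, plus strand): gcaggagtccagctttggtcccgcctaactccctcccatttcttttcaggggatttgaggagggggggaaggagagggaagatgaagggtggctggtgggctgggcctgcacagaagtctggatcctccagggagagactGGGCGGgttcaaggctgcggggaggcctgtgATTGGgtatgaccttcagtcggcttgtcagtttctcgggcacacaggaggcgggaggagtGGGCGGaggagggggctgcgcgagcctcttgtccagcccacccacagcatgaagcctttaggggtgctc
The windows differ in composition, from 37.7% G+C for Col3a1 to 75.0% for Col5a1. CCAAT was matched 2 times in Col1a2, 1 time in Col11a1 and not in Col3a1 or Col5a1, and 37.4% of all 32851 windows of this length hold a match. GC boxes were matched 2 times in each of Col1a2, Col5a1 and Col11a1 and not in Col3a1 (35.7% of all windows), and TATAAA was matched in Col3a1 only among these 4 chains (13.6% of all windows). No letter pattern searched here was found in all of the windows of Col1a2, Col3a1 and Col5a1. Col1a1 and Col5a2, which moved with these chains, had no window, so the comparison is incomplete.

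The libraries held 41536788 to 64644293 counted reads. Counts were scaled to CPM, the counts of a gene relative to 1e+06 counts of the library, with TMM factors. Cd248 was at 119 to 193 CPM in the WT sham scars and 92.4 to 337 CPM in the WT traction scars, but at 0 to 13 reads in each lacZ library, so all 12 libraries matched their genotype labels. Fibroblast markers (7 of 7 listed) summed to 4160 to 6970 CPM across the libraries. Cartilage markers were low: Col2a1, the defining fibrillar chain of cartilage, had at most 8 reads in any library. Of 5 chondrocyte markers 4 were in the count files, and they summed to 24.6 to 59.1 CPM. Most of that sum was Sox9, at 22.9 to 54.7 CPM.

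Levels between chains were compared per kilobase of annotated exon. Col3a1 was the most abundant chain in every group, and made up 57.6% ± 1.97 (SD, n = 3) of the 8 chains in WT sham scars, 50.2% ± 3.83 in WT traction scars, 63.2% ± 0.613 in lacZ sham scars and 54.3% ± 3.78 in lacZ traction scars. Col1a1 followed with 20.4% ± 0.84, 25.4% ± 2.54, 15.5% ± 0.94 and 22.4% ± 2.86 in the same order of groups. Col1a2 was next (11.8% to 14.3% by group mean), then Col5a2 (5.28% to 6.56%), Col5a1 (2.07% to 3.35%), Col5a3 (0.491% to 1.15%), Col11a1 (0.0428% to 0.11%) and Col11a2 (0.00686% to 0.0141%). The order was the same in all 12 libraries. The spread between scars was wide in the traction groups, where the ranges of Col3a1 and Col1a1 overlapped, as did those of Col1a1 and Col1a2. The ranges of Col1a1 and Col1a2 also overlapped in lacZ sham scars. The places of Col1a1 and Col1a2 swapped when the longest transcript replaced the union of exons as the length, since the union of Col1a2 is 12426 bases and its longest transcript 5348.

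Type I collagen genes had their highest group means in the WT traction scars, although single lacZ traction scars exceeded WT traction replicate 1. Col1a1 was at 3475, 4635 and 5368 CPM in the WT sham scars and at 7601, 12290 and 23370 CPM in the WT traction scars. In lacZ mice it was at 3049, 1536 and 2202 CPM in sham scars and 2700, 8500 and 7091 CPM in traction scars. The WT groups did not overlap, whereas lacZ traction replicate 1 lay within the lacZ sham range.
Col1a2, the partner chain of type I, was at 4649, 5841 and 6074 CPM in WT sham scars and 7403, 13730 and 25150 CPM in WT traction scars. Its lacZ values were 4016, 2508 and 3080 CPM with sham and 3210, 10380 and 8508 CPM with traction. Here too the WT groups were apart and lacZ traction replicate 1 was among the sham values.
Col3a1, the chain of type III collagen, was at 13630, 19590 and 24460 CPM in WT sham scars and 24140, 41360 and 56600 CPM in WT traction scars. In lacZ scars it was at 17250, 9666 and 14190 CPM with sham and 12250, 26080 and 24500 CPM with traction. Traction and sham overlapped in both genotypes.

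Among the type V chains, Col5a1, which carries a large N-terminal domain that projects from the fibril surface, was at 405, 705 and 874 CPM in WT sham scars and 1263, 2139 and 3988 CPM in WT traction scars. It was at 523, 244 and 416 CPM in lacZ sham scars and 460, 1172 and 1063 CPM in lacZ traction scars. All WT traction scars exceeded all scars of the other groups.
Col5a2, the other chain of the common type V molecule, was at 1170, 1808 and 2209 CPM and at 3042, 4100 and 5648 CPM in WT sham and traction scars. In lacZ mice it was at 1769, 920 and 1511 CPM and at 1451, 2624 and 2320 CPM. WT traction scars again lay above all others. The share of all genes with every WT traction scar above all other scars was not counted.
Col5a3, a chain of rarer type V molecules, was at 173, 169 and 261 CPM in WT sham scars and 468, 423 and 1042 CPM in WT traction scars. Its lacZ values were 115, 58.2 and 201 CPM with sham and 78.7, 102 and 204 CPM with traction. The lacZ groups covered nearly the same range, unlike the WT groups, which were apart.

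The type XI chains were scarce. Col11a1 had its highest group mean in lacZ traction scars, while Col11a2 had it in WT traction scars, as the other chains did. Col11a1 was at 15.4, 79.4 and 27.5 CPM in WT sham scars, 21.9, 64.9 and 44.8 CPM in WT traction scars, 11.5, 19.4 and 21.9 CPM in lacZ sham scars, and 40.3, 70.2 and 45.4 CPM in lacZ traction scars. Sham and traction were apart in lacZ mice and overlapped fully in WT mice.
Col11a2 was at 1.43, 1.81 and 1.33 CPM in WT sham scars, 5.19, 3.91 and 1.75 CPM in WT traction scars, 2.71, 1.90 and 1.62 CPM in lacZ sham scars, and 1.63, 2.33 and 1.87 CPM in lacZ traction scars. These values rest on 66 to 218 reads per library.

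**Figure D1:**
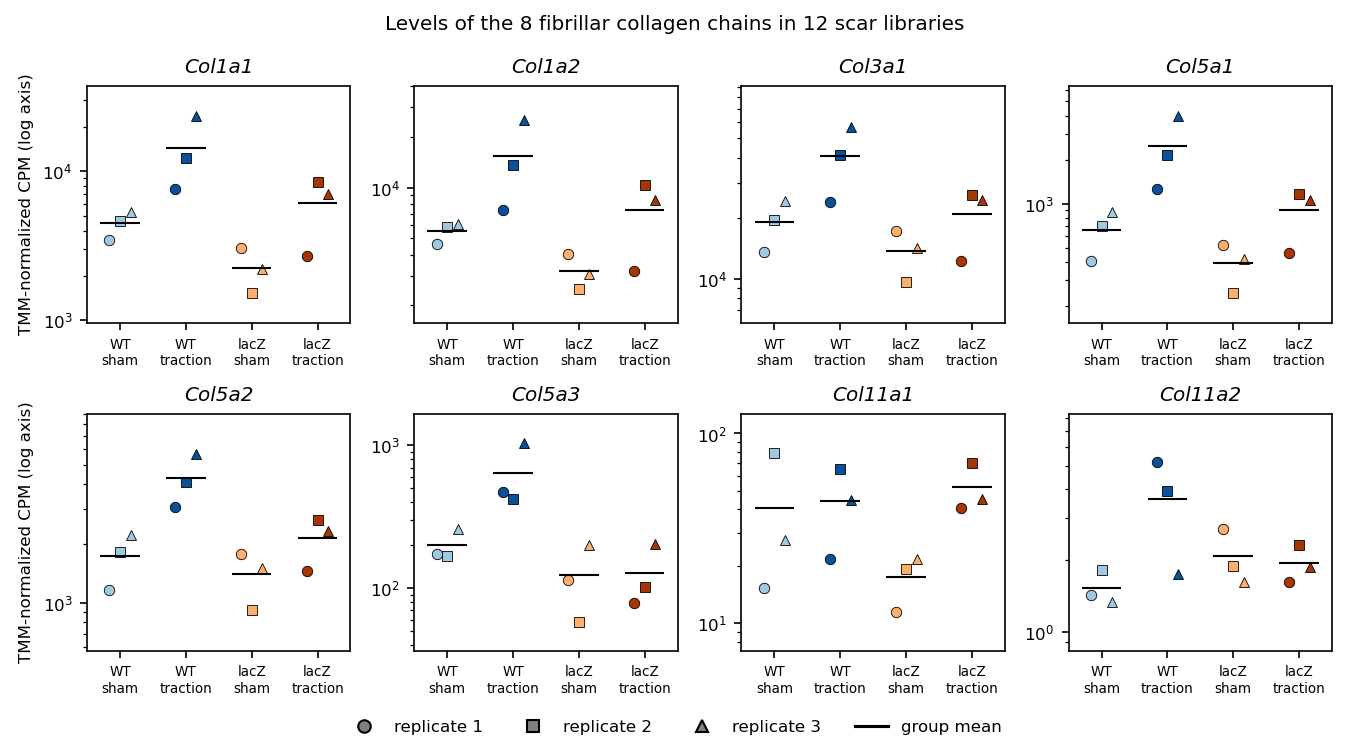
TMM-normalized CPM (log axis, scaled separately in each panel) of the 8 chains in the 12 scars, with symbols for replicate numbers and a line at each group mean (n = 3). The 3 WT traction scars lie above all other scars for Col5a1, Col5a2 and Col5a3, and Col11a1 shows no such pattern. The share of all genes with this pattern was not counted.

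Traction against sham in Tem1WT/WT mice addressed the response of the scar to stretch. Counts of all 18853 genes tested were fitted together over the 4 groups by edgeR's quasi-likelihood test, with Benjamini-Hochberg adjustment over all genes. Col5a1 rose 3.73-fold (log2 fold change 1.90 ± 0.50 SE, adjusted p = 0.0429) and Col5a2 rose 2.47-fold (1.30 ± 0.36, adjusted p = 0.0466). So 2 of 8 chains passed adjusted p under 0.05, where 9.15% of all genes did and 5.61% rose. Both calls were close to the threshold. Neither held (0 of 8 chains called) when any WT sham or lacZ sham scar was left out, or lacZ traction replicate 2 or 3. Without WT traction replicate 1 or 3, 1 chain was called, and 4 were called without lacZ traction replicate 1. Here and below, the share of all genes called was not counted in fits with a scar left out. Whether these counts moved with all genes or with these chains alone was not tested.

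The other chains did not pass that threshold. Their fold estimates were 3.21 for Col1a1 (log2 1.68, 95% interval 0.59 to 2.77, adjusted p = 0.0553), 2.79 for Col1a2 (adjusted p = 0.0722), 2.12 for Col3a1 (adjusted p = 0.105), 3.21 for Col5a3 (adjusted p = 0.0608), 2.37 for Col11a2 (adjusted p = 0.0619) and 1.08 for Col11a1 (log2 0.11, interval -1.12 to 1.33, adjusted p = 0.917), all by edgeR. An unadjusted p under 0.05 was reached by 7 of 8 chains (31.4% of all genes, 16.7% with higher values), and 5 chains did not overlap between the groups (35.7% of all genes, 17.7% with higher values). The median log2 fold change was 1.39 over the 8 chains and -0.01 over all genes tested. DESeq2's Wald test called 7 of 8 chains, where it called 21.6% of all genes with an adjusted p in either direction, and limma-voom with sample weights called 0 (3.9% of all genes).

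In Tem1lacZ/lacZ mice edgeR called 0 of 8 chains with traction, and 0% of all genes. Log2 fold changes were 1.43 for Col1a1 (95% interval 0.35 to 2.51), 1.20 for Col1a2, 0.61 for Col3a1, 1.19 for Col5a1, 0.61 for Col5a2, 0.04 for Col5a3 (interval -1.06 to 1.15), 1.56 for Col11a1 and -0.10 for Col11a2. An unadjusted p under 0.05 was reached by 4 of 8 chains (Col1a1, Col1a2, Col5a1 and Col11a1), against 8.12% of all genes and 5.66% with higher values, and DESeq2 called 0 chains (0.128% of all genes) and limma-voom 2 (2% of all genes). Only Col11a1 did not overlap between the groups, as 12.9% of all genes did not (6.77% with higher values). The median was 0.90 over the chains and -0.02 over all genes.

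A difference between genotypes in the response to traction was tested as an interaction, and passed for 0 of 8 chains (0% of all genes). By edgeR the interaction was -1.64 log2 units for Col5a3 (95% interval -3.21 to -0.07, adjusted p = 0.549) and -1.34 for Col11a2 (interval -2.52 to -0.15, adjusted p = 0.548). These were the 2 chains with an unadjusted p under 0.05, which 8.91% of all genes had (4.46% with a negative interaction); DESeq2 called 0 (0.368% of all genes), and limma-voom called 0 (0%). For Col1a1 it was -0.25 with an interval from -1.75 to 1.25, so 12 scars left both a weaker and a stronger response of lacZ mice possible.

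Averaged over both genotypes, traction raised 4 of 8 chains, against 9.73% of all genes called and 6.5% called higher. These were Col1a1 (2.94-fold, adjusted p = 0.0295), Col1a2 (2.54-fold, adjusted p = 0.0392), Col5a1 (2.91-fold, adjusted p = 0.0303) and Col5a2 (1.94-fold, adjusted p = 0.0413) by edgeR. Col3a1 was at 1.80-fold (adjusted p = 0.0827), Col5a3 at 1.82-fold, Col11a1 at 1.78-fold and Col11a2 at 1.49-fold, and none of these passed. An unadjusted p under 0.05 was reached by 6 of 8 chains, against 30.7% of all genes and 17.2% with higher values. No chain was called without WT sham replicate 1 or 2, lacZ sham replicate 2 or 3, or lacZ traction replicate 2 or 3, and 2 were called without WT traction replicate 3.

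The genotypes were compared next. Among scars under traction, 0 of 8 chains passed by edgeR (0.106% of all genes did), and 7 of 8 had an unadjusted p under 0.05 (26.1% of all genes, 15.1% with lower values). The lacZ values were lower for 7 of 8 chains. Col5a3 was at 0.199 times its WT level (log2 -2.33, 95% interval -3.49 to -1.17, adjusted p = 0.0845), Col5a1 at 0.365 times (log2 -1.45, adjusted p = 0.117) and Col5a2 at 0.50 times (adjusted p = 0.125) by edgeR. These 3 type V chains did not overlap between the genotypes (26.6% of all genes did not, 13.7% with lower values), and the 2 type I chains and Col3a1 did. DESeq2 called 3 of 8 chains here (12.8% of all genes) and limma-voom 0 (0.0849%). Without WT traction replicate 2, edgeR called 1 chain.

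In sham scars 0 of 8 chains passed by edgeR (0.0106% of all genes), 0 had an unadjusted p under 0.05 (11.7% of all genes), and DESeq2 (0.156% of all genes) and limma-voom (0.0053%) called 0. Col1a1 was at 0.504 times its WT level (log2 -0.99, 95% interval -2.06 to 0.08) and Col1a2 at 0.58 times. These 2 chains did not overlap between the genotypes, as 26.8% of all genes did not (13.8% with lower values). Averaged over both treatments all 8 chains were lower in lacZ scars, 6 with an unadjusted p under 0.05 (28.4% of all genes, 16% with lower values), and 0 passed the adjusted threshold by edgeR (0.053% of all genes), 5 by DESeq2 (17.2% of all genes) and 0 by limma-voom (2.93%).

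**Figure D2:**
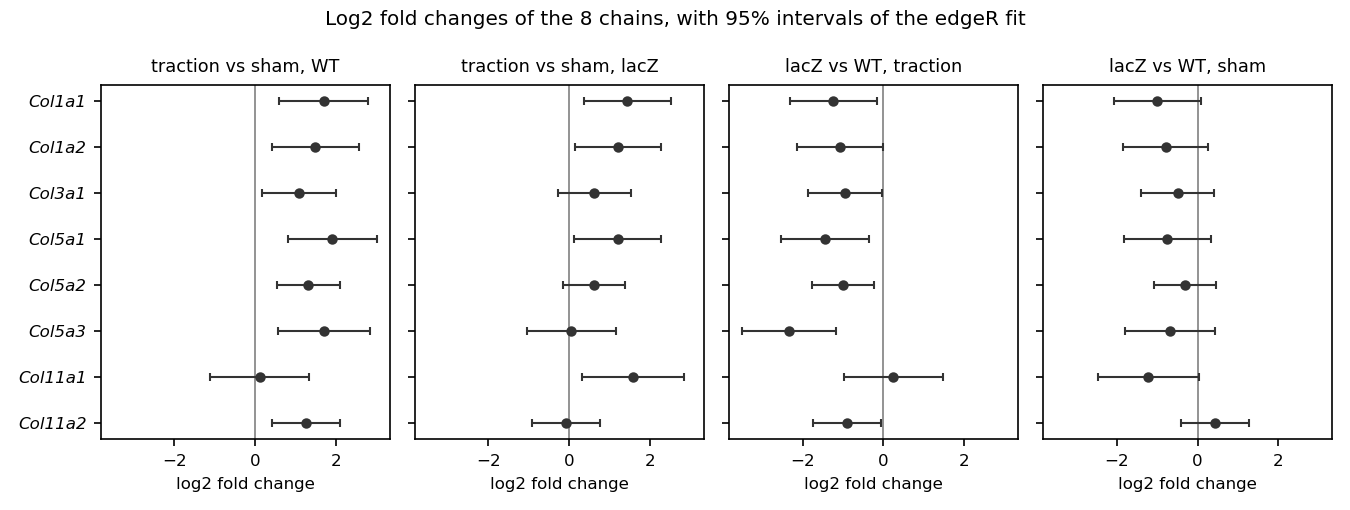
Log2 fold change of each chain (points) with the 95% interval of the edgeR fit (bars) in 4 comparisons, drawn on one horizontal scale. Traction in WT mice shows Col5a1 and Col5a2 at 1.90 and 1.30, and the lowest point with traction by genotype is Col5a3 at -2.33.

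Measured on bulk tissue, fewer cells of a type and less RNA per cell cannot be told apart. Markers of other cells also differed with traction in WT mice. Of the neutrophil markers 4 of 4 rose by edgeR, as 5.61% of all genes did. Their sum was at 30.3 to 86.9 CPM in WT sham scars. In WT traction scars it was at 6670, 581 and 276 CPM, the highest in replicate 1. Of the endothelial markers 2 of 4 rose, with sums of 259 to 390 and 717 to 790 CPM. Skeletal muscle markers summed to 473 to 6230 CPM in WT sham and 130 to 1020 CPM in WT traction scars (median log2 fold change -2.62, lower for 4 of 4 genes, 0 called). The adipocyte sums were 533 to 587 and 147 to 551 CPM (median -1.52, lower for 4 of 4 genes, 0 called). Fibroblast markers were at 4160 to 6410 and 5500 to 6690 CPM, with a median log2 fold change of 0.51 over the 7 genes. They were split: 4 of 7 were higher and 2 were called up, while Dcn, Dpt and Fap had lower group means. Of the myofibroblast markers 4 of 4 were higher and 0 called, with a median of 0.32. The highest keratinocyte sum was in lacZ traction replicate 1 (39700 CPM, others 8630 to 19500). The part of these cells in the collagen differences was not tested.

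Ratios between chains were formed within each library, which frees them from the scaling of libraries, and were tested by exact permutation of the labels within strata (two-sided, 400 splits, smallest p 0.005), with adjustment over 8 ratios. The question was whether the mix of collagens changed along with the amount. 3 ratios moved with traction. Absolute ratios depend on the length given to each gene, while differences between groups do not.
Col3a1 to Col1a1, the type III to type I ratio, was 2.62, 2.83 and 3.05 in WT sham scars and 2.12, 2.25 and 1.62 in WT traction scars. In lacZ mice it was 3.78, 4.21 and 4.31 with sham and 3.03, 2.05 and 2.31 with traction. Traction and sham did not overlap in either genotype. The ratio fell to 0.645 times its sham value (log2 -0.63, p = 0.005, adjusted p = 0.0133, exact permutation).
Col1a1 to Col1a2, the ratio of the type I chains, was 1.42, 1.5 and 1.67 in WT sham scars and 1.94, 1.70 and 1.76 in WT traction scars. It was 1.44, 1.16 and 1.35 in lacZ sham scars and 1.59, 1.55 and 1.58 in lacZ traction scars. Again all traction scars lay above all sham scars of their genotype. The rise was 1.19-fold (log2 0.25, p = 0.005, adjusted p = 0.0133, exact permutation).
Col5a1 to Col5a2, the ratio of the main type V chains, was 0.391, 0.44 and 0.447 in WT sham scars and 0.469, 0.589 and 0.798 in WT traction scars. It was 0.334, 0.299 and 0.311 in lacZ sham scars and 0.358, 0.505 and 0.518 in lacZ traction scars. The groups were apart in both genotypes. The ratio rose 1.43-fold (log2 0.52, p = 0.005, adjusted p = 0.0133, exact permutation), but with 1 scar fewer (WT sham replicate 1 or any lacZ sham replicate) its adjusted p was 0.0533.

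The base composition of the transcripts moved with these results. In each of the 3 shifted ratios the chain that gained was the richer in G+C: Col1a1 has 58.9% G+C against 55.7% for Col1a2 and 52.5% for Col3a1, and Col5a1 has 58% against 49.6% for Col5a2. Over the better expressed genes (average log2 CPM of 1 or more), the level changed by -0.086 to 0.026 log2 units per 10 points of G+C in WT sham libraries relative to the mean of all libraries, by 0.08 to 0.473 in WT traction libraries, by -0.268 to -0.188 in lacZ sham libraries and by -0.253 to 0.136 in lacZ traction libraries. With the trend on G+C and length removed from each library, Col3a1 to Col1a1 still fell (log2 -0.47, 0.722 times, p = 0.005, adjusted p = 0.04, exact permutation). Col1a1 to Col1a2 (log2 0.16, adjusted p = 0.096) and Col5a1 to Col5a2 (log2 0.31, adjusted p = 0.08) then missed the threshold by the same exact permutation test. This correction was chosen after the data were seen. The levels and fold changes given above are without it. Across 13166 genes, log2 fold changes also correlated with G+C. Pearson r was 0.183 for traction in WT mice, 0.23 for traction in lacZ mice and -0.211 between genotypes under traction.

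The other 5 ratios did not pass with traction. Col5a3 to Col5a1 was at 0.644 times its sham value (log2 -0.63, p = 0.075, adjusted p = 0.15, exact permutation), from a geometric mean of 0.389 to 0.334 in WT scars and from 0.366 to 0.177 in lacZ scars. Averaged over the genotypes, Col5a1 to Col1a1 was nearly level (1.03-fold, p = 0.76 by exact permutation), between 0.09 and 0.146 in all 12 scars. This average joins a shift of 0.26 log2 units in WT scars and -0.18 in lacZ scars. Col5a2 to Col3a1 ranged from 0.0879 to 0.129 (1.11-fold, adjusted p = 0.152, exact permutation), and Col11a1 to Col11a2 from 2.28 to 23.6 (1.34-fold, adjusted p = 0.606). Col11a1 to Col5a1 was at 0.689 times its sham value (p = 0.365, adjusted p = 0.487, exact permutation). It moved by -1.50 log2 units in WT scars, where the groups were apart, and by 0.43 in lacZ scars, where they overlapped.

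By genotype, Col3a1 to Col1a1 was 1.33-fold higher in lacZ scars (p = 0.02), Col1a1 to Col1a2 was at 0.868 times (p = 0.01) and Col5a1 to Col5a2 at 0.746 times (p = 0.015) by stratified exact permutation, each with an adjusted p of 0.0533, which misses the threshold. With the G+C and length trend removed, the adjusted p-values were 0.2, 0.33 and 0.33. No difference between genotypes in the shift of a ratio with traction passed: the lowest adjusted p was 0.16, for Col5a1 to Col1a1 and for Col11a1 to Col11a2, by exact permutation. Within one genotype 3 scars against 3 cannot give a p below 0.1.

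**Figure D3:**
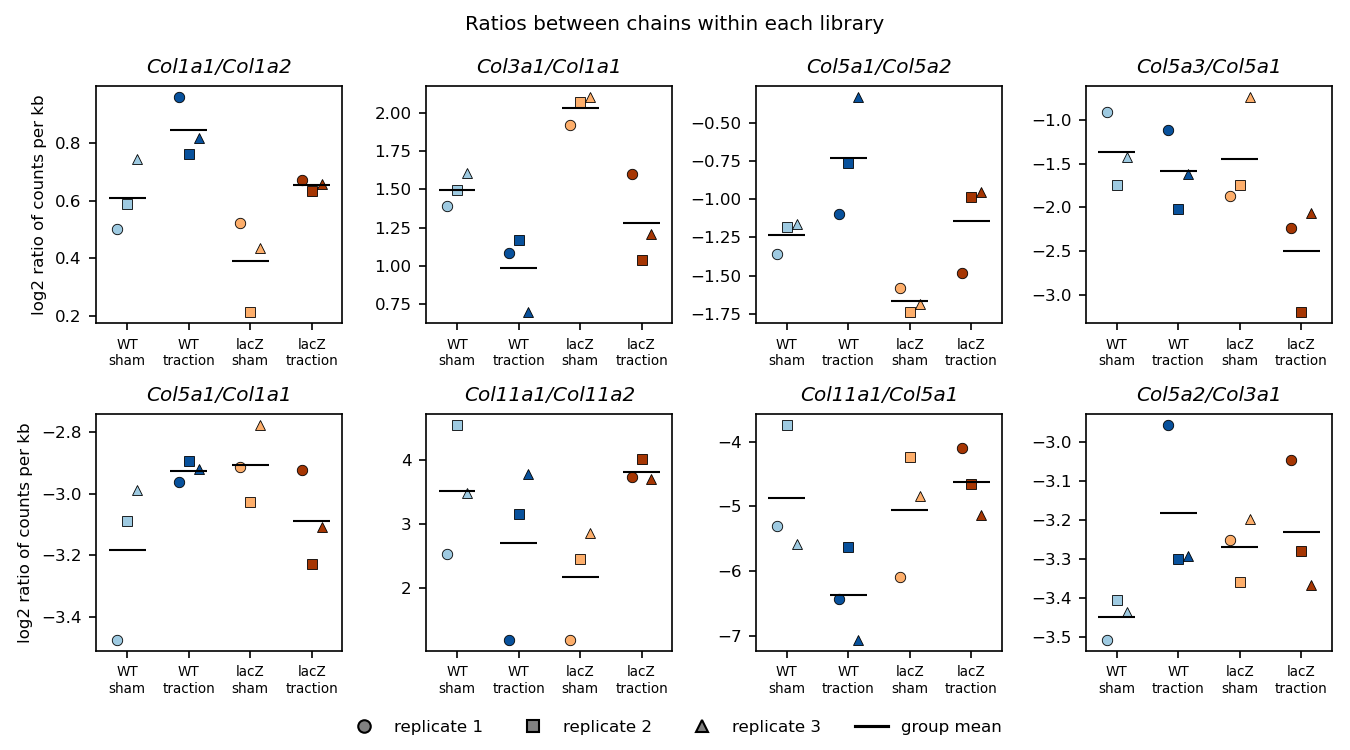
Log2 ratios of counts per kilobase within each of the 12 libraries for 8 pairs of chains (vertical axes differ between panels), with symbols for replicate numbers and lines at group means (n = 3). For Col3a1 to Col1a1 all traction scars lie below the sham scars of the same genotype, and for Col1a1 to Col1a2 and Col5a1 to Col5a2 they lie above.

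The 8 chains together took 2.51%, 3.5% and 4.05% of all counts in WT sham scars and 3.78%, 7.23% and 10.4% in WT traction scars. In lacZ scars they took 2.69%, 1.52% and 2.23% with sham and 1.93%, 5.32% and 4.51% with traction. The groups overlapped in both genotypes. The share was 1.86-fold higher with traction (p = 0.04) and 0.589 times as high in lacZ scars (p = 0.045) by stratified exact permutation, and the effect of traction did not differ by genotype beyond the spread (interaction p = 0.81). The traction result passed without WT sham replicate 3, lacZ sham replicate 1, WT traction replicate 1 or lacZ traction replicate 1, and missed the threshold without any other scar (p up to 0.075). The genotype result missed it without 8 of the 12 scars (p up to 0.125, without WT traction replicate 3).

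Scars of one group also differed in collagen, and 5 chains moved together. After group means were removed from log2 CPM, Col1a1 correlated over the 12 scars with Col1a2 (Pearson r = 0.986, Spearman rho = 0.986), Col3a1 (0.969, 0.951), Col5a1 (0.971, 0.986) and Col5a2 (0.92, 0.888). Each had p = 0.000772, the smallest that 1296 permutations within groups can give, and 0.00135 after adjustment over 7 relations. Without the 2 scars farthest from the median (WT traction replicate 3 and lacZ sham replicate 2), r was 0.988, 0.959, 0.955 and 0.908. The other chains were less close: r was 0.649 for Col5a3 (rho 0.671, permutation adjusted p = 0.124), 0.32 for Col11a1 (rho 0.28, adjusted p = 0.347) and -0.254 for Col11a2 (rho 0.007, adjusted p = 0.627). Without the same 2 scars they were 0.372, 0.40 and 0.378. How many of all genes followed Col1a1 as closely within groups was not counted.

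**Figure D4:**
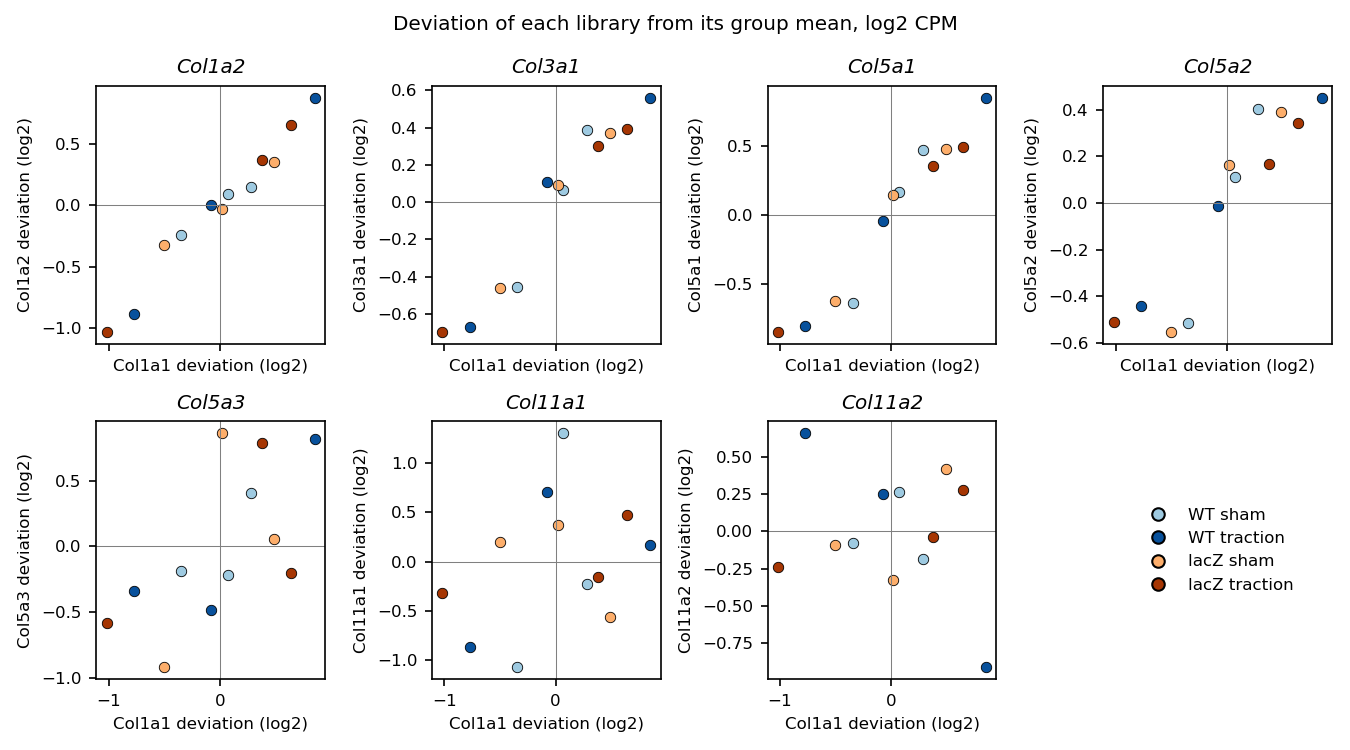
Deviation of each of the 12 scars from its group mean in log2 CPM, Col1a1 on the horizontal axis and each other chain on the vertical axis, coloured by group. Points follow a line for Col1a2, Col3a1, Col5a1 and Col5a2 (r of 0.92 to 0.986) and scatter for Col11a1 (0.32) and Col11a2 (-0.254).

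The genes whose log2 CPM followed each chain most closely over all 12 libraries were named as a description, from 13638 genes searched. They were Wwc2 (r = 0.992) and Cul7 (0.991) for Col1a1, Wwc2 and Prrc1 (0.988 each) for Col1a2, Vash1 (0.986) and Olfml2b (0.981) for Col3a1, and Mrc2 (0.993) and Igdcc4 (0.99) for Col5a1. For Col5a2 they were Vash1 (0.995) and Cd276 (0.993), and for Col5a3 they were Dpysl2 (0.966) and Abl2 (0.958). The closest to the type XI chains were H1fx (0.875) and Kif26a (0.871) for Col11a1, and 6330416G13Rik (0.919) and Car4 (0.917) for Col11a2. Spearman rho for these was 0.832, 0.895, 0.818 and 0.622 in the same order, and 0.86 to 1 for the genes named with the other chains. All these libraries share the group differences.

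A list of 52 genes that build, modify, cross-link, bind or cleave fibrillar collagen was read from the same edgeR fit, and 50 could be tested. With traction in WT mice 25 rose and 1 fell, against 9.15% of all genes called. The median log2 fold change was 1.12, against -0.01 over all genes. The count was 0 without WT sham replicate 1 or 2, 9 without lacZ sham replicate 3 and 15 without WT traction replicate 3. It was 0 when only the 6 WT libraries were fitted. Shares of all genes called were not counted in those fits. Of 14 genes of chain hydroxylation, folding and export 11 rose, and of 5 cross-linking enzymes 3 rose (Lox, Loxl2 and Loxl3). Both tested fibrillar chains outside the 8 rose (Col24a1 and Col27a1). Of 7 genes of propeptide removal 2 rose and 1 fell, of 9 fibril surface genes 2 rose (Col12a1 and Bgn), of 7 receptors 1 rose (Itga1), and of 6 breakdown genes 4 rose.

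The largest changes in the list were as follows. Mmp13, a collagenase that cuts fibrillar collagen, was at 14.5, 11.2 and 35.2 CPM in WT sham scars and 1929, 154 and 138 CPM in WT traction scars (log2 fold change 5.19, adjusted p = 0.03, edgeR), with the highest value in the scar that also had the most neutrophil marker RNA. Col12a1, which coats the fibril surface, went from 181, 523 and 622 CPM to 3102, 2751 and 4087 CPM (log2 2.91, adjusted p = 0.0242, edgeR). Col24a1, a minor fibrillar chain, went from 3.56, 11.3 and 19.7 CPM to 75.7, 85.4 and 93.2 CPM (log2 2.88, adjusted p = 0.0278, edgeR).
All 3 were apart between sham and traction in WT mice, as 35.7% of all genes were (17.7% with higher values). They were picked by their change in this same comparison. Loxl3, a lysyl oxidase, rose by 2.16 log2 units and P4ha3, a subunit of prolyl 4-hydroxylase, by 1.78. Pcolce2, an enhancer of propeptide removal, fell by 2.46 on the log2 scale (87.7, 24.5 and 25.4 CPM to 7.80, 6.96 and 10.2 CPM).

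In lacZ mice 0 of the 50 genes passed with traction by edgeR (0% of all genes), 15 had an unadjusted p under 0.05 (8.12% of all genes), and 38 of 50 had a positive log2 fold change (median 0.36). DESeq2 called 0 (0.128% of all genes) and limma-voom 5 (2%). Between genotypes under traction 1 gene passed by edgeR (0.106% of all genes), 21 by DESeq2 (12.8%) and 0 by limma-voom (0.0849%), with an unadjusted p under 0.05 for 34 (26.1% of all genes). The gene called by edgeR was P4ha1, a catalytic subunit of the same hydroxylase, named here after its values were seen. It was at 240, 231 and 254 CPM in WT and 106, 126 and 93.4 CPM in lacZ traction scars (log2 -1.15, adjusted p = 0.0335, edgeR). These groups did not overlap, as 26.6% of all genes did not (13.7% with lower values). The count was 0 with a replicate block or upper quartile scaling, and leaving out any one scar gave 0 except lacZ sham replicate 2 (1 gene) and WT traction replicate 2 (11 genes). In sham scars 0 genes of the list passed by edgeR, DESeq2 or limma-voom (2 with an unadjusted p under 0.05, as 11.7% of all genes had), and in the interaction 0 passed by edgeR, 1 by DESeq2 (0.368% of all genes) and 0 by limma-voom (14 with an unadjusted p under 0.05, as 8.91% of all genes had).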

How the data were processed

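Scar RNA libraries (TruSeq Stranded mRNA kit, Illumina paired-end reads) were trimmed with fastp 0.20.0, aligned to GRCm38 with HISAT2 2.1.0 and counted with featureCounts 2.0.0 by the authors, who deposited raw read counts per gene symbol for each library. The annotation and strand setting of the counting are not given in the sources used here. Groups came from the genotype and treatment labels. Genes were filtered by filterByExpr, TMM-scaled and fitted in edgeR 4.0.16 (R 4.3.3; 4 group means, robust quasi-likelihood, 8 residual degrees of freedom, threshold 0.05). Replicates were separate scars, and no pair of libraries agreed within sampling noise. DESeq2 1.42.0, limma 3.58.1 (voom with sample weights), other scalings, no filter, a replicate block, leaving out each scar, and a G+C and length correction (added after the data were seen, available for 90.3% of tested genes) were alternatives. Lengths came from GENCODE vM21. The code was tested on simulated data.

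Genes named were the 8 chains, Cd248, the 6 called genes of the collagen list with the largest change with traction in WT mice, and for each chain the 2 other genes with the highest r (mean log2 CPM of at least 1). The chains, lists and tests were chosen with earlier results of these data known.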

Additional observations from a re-analysis of the deposited data

Results flagged for a closer look

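The response of the Col5a1 to Col1a1 ratio to traction differed in sign between the genotypes. In WT mice every traction scar was above the mean of the sham scars (ratios 0.128 to 0.134 against 0.09 to 0.126), and in lacZ mice every traction scar was below it (0.107 to 0.132 against 0.123 to 0.146). The difference between the responses was -0.44 on the log2 scale (p = 0.03 when genotype labels were permuted within treatments, exact permutation; adjusted p = 0.16 over 8 ratios). It does not pass the adjustment. The ratio was 0.09 in WT sham replicate 1, the lowest of the 12 scars.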

How the results depend on the processing

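Of 1096 fold changes of the chains under the alternatives, 990 kept their direction and their side of the threshold, 58 kept the direction and lost the call, 29 gained one and 19 changed sign. The number of chains called with traction in WT mice was 1 with upper quartile scaling, 0 without a filter on low counts, 7 with DESeq2, 0 with limma-voom and 0 when only the 6 libraries compared were fitted, and 0 to 4 when 1 scar was left out. With DESeq2 3 chains were called between genotypes under traction and 5 between genotypes over both treatments, and with limma-voom 2 were called with traction in lacZ mice. Leaving out 1 scar gave 0 to 5 chains called with traction over both genotypes, and 0 to 1 for each of the 2 genotype comparisons. Among the alternatives, shares of all genes called were counted for DESeq2 and limma-voom only. The number called never moved from 0 in sham scars or for the interaction.

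Groups share replicate numbers, but they did not meet the rule for pairing, a correlation over 0.1 in every pair. Deviations of same-numbered libraries correlated at -0.324 to 0.25 (median 0.089, 8 of 18 pairs over 0.1) and those of differently numbered ones at -0.403 to 0.373 (median -0.019, 2 of 36 over 0.1). Of the 12 libraries, 2 correlated best with their own number in all 3 other groups at once. With a replicate block 3 chains were called with traction in WT mice, 1 between genotypes under traction and 1 between genotypes over both treatments.

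Signs changed in small effects. With limma-voom the log2 fold change of Col11a2 with traction in lacZ mice was 0.11, and the interactions of Col1a1 and Col1a2 were 0.107 and 0.0467. With the G+C and length correction Col5a3 with traction in lacZ mice was -0.45 and Col11a2 by genotype over both treatments 0.28. The cause was not tested. Leaving out 1 scar gave log2 fold changes of -0.30 to 1.05 for Col11a1 with traction in WT mice, -0.46 to 0.60 for Col5a3 and -0.24 to 0.19 for Col11a2 with traction in lacZ mice, and -0.0461 to 0.64 for Col11a1 between genotypes under traction. It gave interactions of -0.57 to 0.32 for Col1a1 and -0.61 to 0.30 for Col1a2. The log2 ratio Col5a1 to Col1a1 moved by -0.0339 to 0.0872 with traction and -0.0142 to 0.11 by genotype, Col5a1 to Col5a2 by 0.42 to 0.61 and -0.52 to -0.32, Col1a1 to Col1a2 by -0.24 to -0.16 by genotype and Col11a1 to Col11a2 by -0.50 to 0.15 by genotype. The log2 share of counts moved by 0.73 to 1.12 with traction and -0.96 to -0.54 by genotype, and r of Col1a1 with Col11a2 ran from -0.53 to 0.40.

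The G+C and length correction left the traction shifts of Col1a1 to Col1a2 (log2 0.16) and Col5a1 to Col5a2 (log2 0.31) short of the threshold. By group medians, Col5a1 to Col1a1 moved by -0.0139 with traction and -0.0061 by genotype. As a difference in percent of counts, the genotype effect on the share of the 8 chains was -2.21 points (exact permutation p = 0.065). Without the 2 scars farthest from the median, r of Col1a1 with Col11a2 was 0.378. Col11a2 rests on few reads.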
